A study of Mus musculus with 3 samples.

Results

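The genes of the AF4 family and of transcription elongation, Aff1, Aff3, Aff4, Ell, Ell2, Cdk9, Ccnt1, Ccnt2, Supt6 and Iws1, were followed in H3K36me3 profiles of mouse regulatory T (Treg) cells from the spleen and the large intestine (LI). H3K36me3, histone H3 trimethylated at lysine 36, is written along transcribed genes by the enzyme Setd2. Of the 120910 peaks of the series, the 262 with their midpoint inside the annotated body of one of these 10 genes were taken. The peaks called in each tissue had been joined, and the tissue in which a peak was called is not recorded. The genes were chosen by their shared role with the spleen and LI peak values of these libraries already known, so the ratios below are a description and not a test. Over the whole series, 11946 genes had such a peak. Of these, 10886 had at least 20 RPKM over both libraries, the minimum set for a ratio, and so did 10 of 10 elongation genes. Aff3 stood far on the spleen side, with 1067 RPKM summed over its peaks in spleen and 381 RPKM in LI, and 87 of its 88 peaks were higher in spleen. Ell2 stood on the LI side, with 32.6 RPKM in spleen and 75.0 RPKM in LI, and 7 of its 7 peaks were higher in LI. Ell was also higher in LI, by a smaller amount, while for the other 7 genes the ratio could not be told from equal signal by counting error. By the same measure, 15.2% of all genes were higher in spleen and 17.9% higher in LI, shares near those of the 10 genes. After correction for GC content, Ell (0.23) was no further from equal than Aff4 and Ccnt2 (0.29 each).

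The cells were CD3+CD4+Foxp3-YFP+ Treg cells of C57BL/6 mice that carry Foxp3 Cre-YFP, an allele in which the Treg lineage gene Foxp3 drives Cre and a yellow fluorescent reporter, with Setd2 intact. They came from the spleen or the LI at steady state, and cells of male and female mice were pooled. The series has 3 libraries, 1 of spleen, 1 of LI and 1 input of splenic Treg chromatin, of which the input was not analysed here. With 1 library per tissue, no difference has a replicate check and no p-value was computed. In bulk chromatin, fewer cells that carry the mark and less mark per cell cannot be told apart. Each interval given with a log2 ratio is an approximate 95% interval that covers counting error alone. It assumes that each read covers 200 bp and takes reads as independent molecules.

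An elongating RNA polymerase II is paused soon after the start of many genes, and the kinase P-TEFb, formed by Cdk9 and cyclin T1 or T2, releases it. AF4 family proteins are the scaffolds of the super elongation complex, which joins P-TEFb to ELL proteins, and ELL proteins raise the rate at which the polymerase adds nucleotides. Spt6, encoded by Supt6, travels with the polymerase as a histone chaperone, and its partner Iws1 helps to bring Setd2 to it, so that H3K36me3 is laid down along the body of transcribed genes. The values below are the mark on the genes that encode these proteins. They are not protein levels, and whether any protein differed was not tested.

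3 stretches of sequence show what the peaks behind the Aff3 and Aff1 results are made of. They are the middle of the Aff3 intron peak with the lowest ratio among its peaks of 1 kb or more, the sole Aff3 peak that was higher in LI, and the last Aff1 peak before the main transcript start. All were chosen after their values had been seen, none touches an annotated exon of its gene, and all are written on the plus strand of mm10, 5′ to 3′, with each CpG in capitals.
Aff3 intron, chr1:38200382-38200681: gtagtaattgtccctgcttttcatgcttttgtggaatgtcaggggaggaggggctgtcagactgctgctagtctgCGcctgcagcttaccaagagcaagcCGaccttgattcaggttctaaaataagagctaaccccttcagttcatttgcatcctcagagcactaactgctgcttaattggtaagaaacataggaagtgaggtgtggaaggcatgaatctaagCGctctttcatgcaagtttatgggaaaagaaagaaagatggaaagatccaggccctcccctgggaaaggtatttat
Aff3 internal start, chr1:38627720-38627930: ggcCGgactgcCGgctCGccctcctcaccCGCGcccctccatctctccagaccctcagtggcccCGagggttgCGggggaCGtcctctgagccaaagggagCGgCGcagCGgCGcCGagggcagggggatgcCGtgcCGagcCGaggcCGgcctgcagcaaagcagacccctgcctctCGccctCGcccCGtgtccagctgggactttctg
Aff1 start, chr5:103753709-103753949: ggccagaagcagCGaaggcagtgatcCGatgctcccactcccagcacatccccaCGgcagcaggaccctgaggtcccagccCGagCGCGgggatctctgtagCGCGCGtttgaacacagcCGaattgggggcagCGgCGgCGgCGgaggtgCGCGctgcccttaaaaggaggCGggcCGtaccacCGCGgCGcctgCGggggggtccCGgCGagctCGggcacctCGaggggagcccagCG

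The Aff3 intron stretch had 46.0% GC and 3 CpG. The stretches near the Aff3 and Aff1 starts had 73.5% and 71.8% GC, and 20 and 27 CpG. Among all 35190 peaks of 200 to 300 bp, the median was 2 CpG, 87.9% held at least 1, and 1.62% held 20 or more. The Aff3 intron stretch is thus of ordinary composition, and the pair near starts is rich in CpG.

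The ratios are log2 values of LI over spleen of the RPKM summed over the peaks of a gene, after each library was scaled to its total over all peaks. Negative values stand for more signal in spleen. Among all genes, 2.04% passed 2-fold in the direction of spleen and 3.42% in the direction of LI. Of the 10 elongation genes, Aff3 did so towards spleen and Ell2 towards LI. The median over the 10 genes was 0.04, beside 0.00 over all genes tested, with 5 genes on each side. Without Aff3 and Ell2, the remaining 8 genes lay between -0.10 (Ccnt1) and 0.41 (Ell). Ordered by ratio, Aff3 was separated from the next gene, Ccnt1, by 1.43 (1.19 to 1.66). Ell2 was separated from Ell by 0.73 (0.07 to 1.39). The genes between them, from Ccnt1 through Supt6, Aff1, Iws1, Aff4, Ccnt2 and Cdk9 to Ell, differed from their neighbours in this order by amounts whose intervals included 0.

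**Figure D1:**
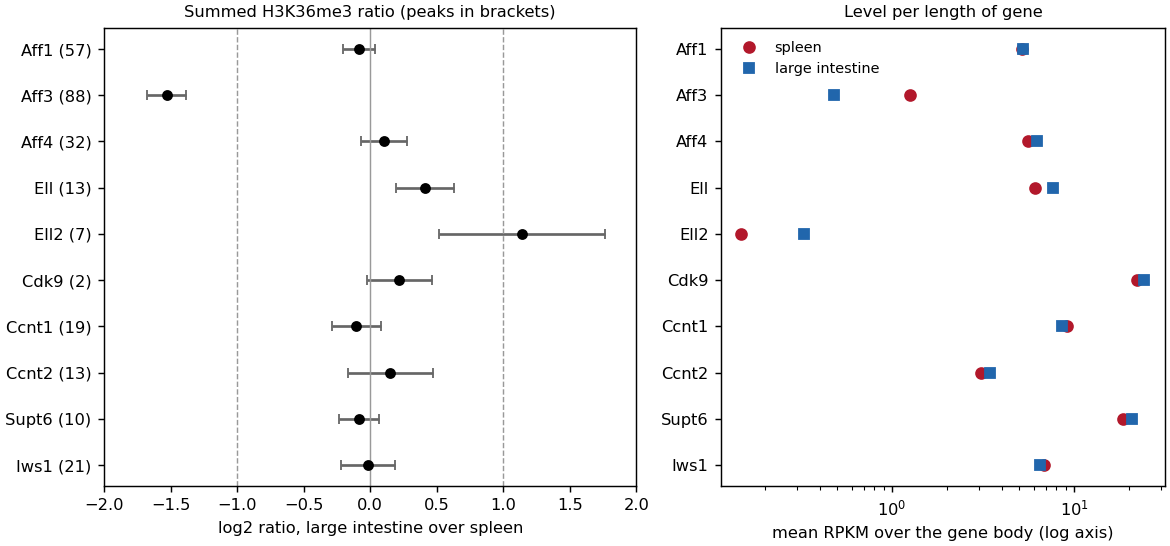
Left, log2 ratio of LI over spleen of the summed H3K36me3 signal of each gene, with its 95% counting interval as the bar and the number of peaks in brackets; dashed lines mark 2-fold. Right, mean RPKM over the gene body on a log axis, in spleen (circles) and LI (squares). Aff3 lies beyond 2-fold towards spleen and Ell2 beyond 2-fold towards LI, and both have the lowest levels per length.

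Per length of gene, the levels spanned a wide range. The mean signal over the gene body, counting stretches outside peaks as 0, was highest for Cdk9, with 22.1 RPKM in spleen and 24.4 RPKM in LI, and for Supt6, with 18.7 and 20.8 RPKM. Ccnt1 (9.19 and 8.60 RPKM), Iws1 (6.85 and 6.53), Ell (6.06 and 7.69), Aff4 (5.59 and 6.22) and Aff1 (5.18 and 5.24) followed. Ccnt2 had 3.08 and 3.47 RPKM, Aff3 1.25 and 0.48 RPKM, and Ell2 0.15 and 0.33 RPKM. The 2 genes with the largest differences between the tissues were therefore the 2 with the least mark per length. By the mean level over both libraries, Aff3 stood at percentile 16.4 and Ell2 at percentile 6.05 of the coding genes tested, whereas Cdk9 stood at 97.2 and Supt6 at 94.8.

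Aff3, a scaffold of the AF4 family that is best known in lymphoid cells (ENSMUSG00000037138.17, chromosome 1, 38177326 to 38664955, minus strand), is the longest of the 10 genes, with 487.6 kb. Peaks covered 9.24% of it. Its summed log2 ratio was -1.53 (-1.68 to -1.38), which is 2.89-fold more in spleen, and -1.62 after correction for GC content. Within its peaks the mean was 13.5 RPKM in spleen, a level close to that of Aff1 in spleen (15.9 RPKM), and 5.19 RPKM in LI. Peak values ran from 3.29 through a median of 11.5 to 23.9 RPKM in spleen, and from 0.55 to 14.0 RPKM in LI. The gene thus carried peaks of common height in spleen that were lower in LI nearly throughout, and not only at a few places.

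Of the 88 Aff3 peaks, 72 (81.8%) passed 2-fold towards spleen, beside 9.65% of all peaks, and 1 passed 2-fold towards LI, beside 9% of all peaks. Short peaks are noisy, so the 11 peaks of 1 kb or more were taken alone. All 11 were higher in spleen, with ratios from -1.67 to -0.82. The longest, of 3113 bp at 99.3% of the body, had a ratio of -1.17, with 18.1 RPKM in spleen. The peak of 1 kb or more with the highest value in spleen, 129.6 kb from the start, had 23.9 RPKM in spleen and 8.32 RPKM in LI. The one with the lowest ratio, whose middle is printed above as the Aff3 intron, had 11.3 and 3.31 RPKM. Among all 28145 peaks of this length, 0.799% passed 2-fold towards spleen, and 9 of the 57 on the elongation genes did so, none of them outside Aff3.

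**Figure D2:**
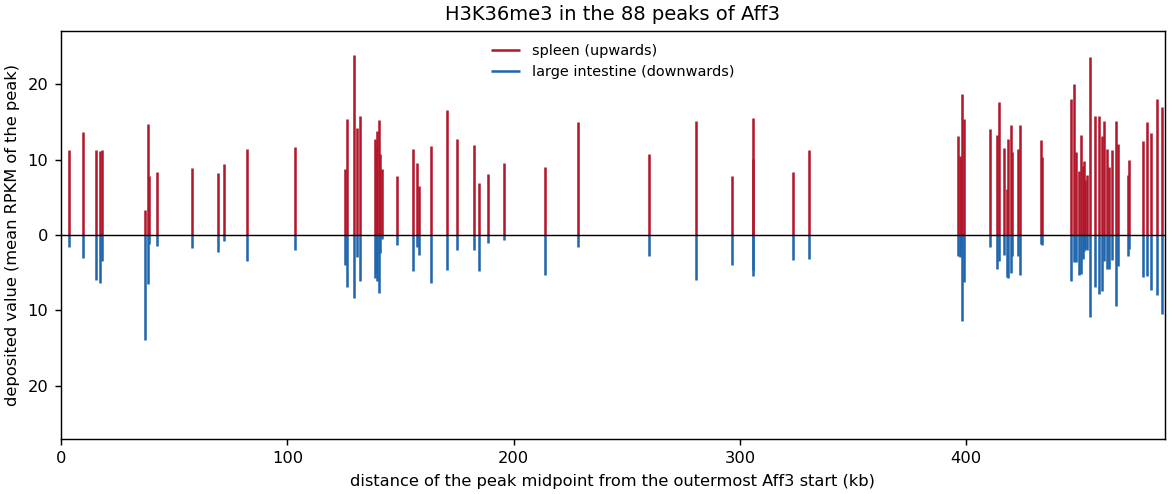
Deposited mean RPKM of each of the 88 peaks of Aff3, at its distance in kb from the outermost start, with spleen drawn upwards and LI downwards on the same scale. The spleen lines are the longer ones at every peak but 1, which lies 37.1 kb from the start.

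In the called peaks, the lower signal in LI ran along the whole of Aff3. Cut into 5 equal parts from start to end, the gene gave ratios of -1.38, -1.62, -1.88, -1.40 and -1.50, over 13, 22, 5, 5 and 43 peaks. The last part, next to the gene end, held 71.4% of the body signal in spleen and 74.0% in LI, so the profile over the gene had much the same shape in both tissues at a different height. The stretch within Gm16150, an antisense gene inside Aff3, had 5 peaks and a ratio of -1.60 (-2.19 to -1.01). The 1 peak in the 20 kb past the end gave -1.78 (-3.13 to -0.43). The next tested coding genes lay closer to equal, with -0.47 (-0.73 to -0.22) for Rev1, 47.5 kb past the end, and -0.25 (-0.49 to -0.01) for Chst10, 198.9 kb before the start.

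The exception was the peak printed above as the Aff3 internal start. It is 211 bp long, lies in an intron of the longest transcript, and its midpoint is 624 bp from the start of a pair of shorter coding transcripts. It had 3.29 RPKM in spleen and 14.0 RPKM in LI, a ratio of 1.89. The part of the gene before that internal start, where that peak lies, held 6 peaks and gave -0.88 (-1.48 to -0.29). Of the 34.4 RPKM of this part in LI, 14.0 RPKM came from that peak, and the other 5 peaks were higher in spleen. The 449.9 kb after the internal start gave -1.58 (-1.73 to -1.43), with 82 of 82 peaks higher in spleen. Peaks over 60% GC had a median ratio of 0.49 in the series as a whole, and 72.6% of them were higher in LI. After the median for its GC content was subtracted, the peak stood at 1.54. Whether this composition or the activity of the internal start sets its ratio was not tested.

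Among coding genes, 41 of 9456 had a ratio as low as that of Aff3, and 6 of the 4165 with at least 200 RPKM. Of the 294 coding genes of 200 kb or more, 14 passed 2-fold towards spleen and 5 were as low as Aff3. These are larger shares than the 171 and 41 of all 9456 coding genes, so long genes lay more often on the spleen side at these cutoffs. Of the 292 coding genes with at least 50 peaks, 2, Aff3 included, had so large a share of peaks higher in spleen. The coding genes with at least 200 RPKM whose ratio lay nearest were Parp8 (-1.54), Itih5 (-1.51) and Patj (-1.50), a likeness in 1 value over 2 libraries. The standing of Aff3 is a description, since the gene was chosen with its ratio known.

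Aff1, the founding AF4 gene (ENSMUSG00000029313.18, chromosome 5, 103692374 to 103855322, plus strand), held 57 peaks that summed to 651.0 RPKM in spleen and 634.5 RPKM in LI. Its ratio was -0.08 (-0.20 to 0.04). The equal sum hid a difference inside the gene. The longest intron of the longest coding transcript, which follows its exon 1, held 14 peaks with 135.6 RPKM in spleen and 88.9 RPKM in LI, a ratio of -0.65 (-1.03 to -0.28), and 12 of the 14 were higher in spleen. The rest of the gene after that intron held 41 peaks and gave 0.02 (-0.10 to 0.14). The intron was singled out after its values had been seen, and its peaks are all under 1 kb.

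Near the main start of Aff1 lay short peaks rich in CpG. The stretch printed as Aff1 start had 10.5 RPKM in spleen and 8.16 RPKM in LI. Its ratio was -0.39 (-1.78 to 0.99), which cannot be told from equal signal by counting error. The next peak, of 200 bp over exon 1, had 3.71 and 12.5 RPKM, a ratio of 1.58. It had 72% GC and stood at 1.23 after the median for its GC content was subtracted. Towards the gene end, where the body level is highest, a peak of 10374 bp had 21.0 RPKM in spleen and 21.1 RPKM in LI. The 15 Aff1 peaks of 1 kb or more ran from -0.72 to 0.39, with 8 higher in spleen and 7 higher in LI. Ptpn13, the next tested gene upstream at 94.1 kb, had a ratio of 0.87 (0.75 to 0.99).

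Aff4, the scaffold of most super elongation complexes (ENSMUSG00000049470.13, chromosome 11, 53350833 to 53421830, plus strand), held 32 peaks that summed to 313.3 RPKM in spleen and 347.3 RPKM in LI. Its ratio was 0.10 (-0.07 to 0.28), and 15 of its peaks were higher in spleen and 17 in LI. The 2 largest peaks, of 7933 and 5913 bp, had 12.9 and 14.7 RPKM in spleen against 14.8 and 15.9 RPKM in LI. Its peaks are poor in GC, with a median of 42.2%, and GC correction took the ratio to 0.29. This value lay outside the counting interval of Aff4, and 26 of its 32 peaks were then above 0. By the sum without GC correction, Aff1 and Aff4 had nearly even signal between the tissues, unlike Aff3.

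**Figure D3:**
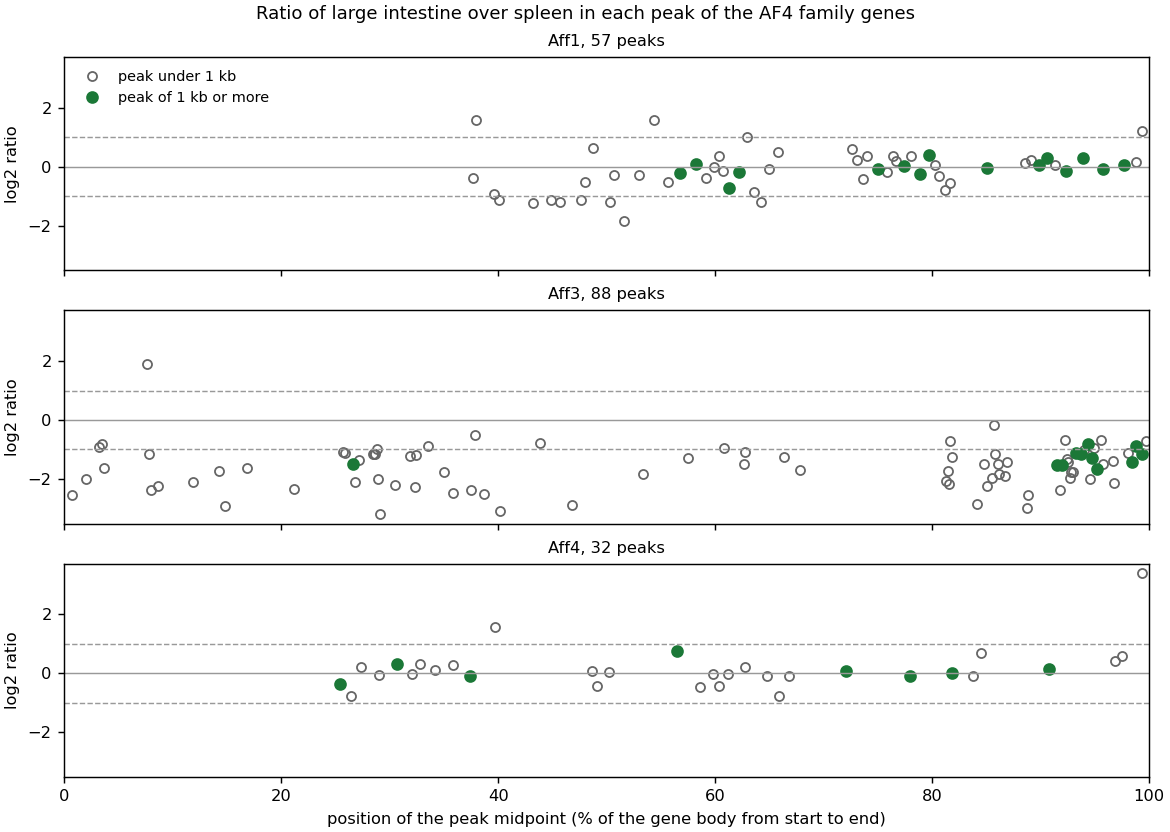
Log2 ratio of LI over spleen of each peak of Aff1, Aff3 and Aff4, by the position of its midpoint in % of the gene body; filled points are peaks of 1 kb or more, and dashed lines mark 2-fold. The filled points of Aff1 and Aff4 lie on both sides of 0, from -0.72 to 0.39 and from -0.38 to 0.76, and all 11 of Aff3 lie below it.

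Ell, which speeds the polymerase (ENSMUSG00000070002.7, chromosome 8, 70539457 to 70592858, plus strand), held 13 peaks that summed to 159.2 RPKM in spleen and 218.8 RPKM in LI. The ratio was 0.41 (0.19 to 0.63), and 11 of the 13 peaks were higher in LI, among them 4 of 4 peaks of 1 kb or more. Over the series, 51.1% of all peaks and 48.9% of those of 1 kb or more were higher in spleen. The largest, of 8251 bp, had 23.7 RPKM in spleen and 29.2 RPKM in LI, and the highest had 21.2 and 34.8 RPKM. Ell has GC-rich peaks, with a median of 53.2%, and GC correction left 0.23. After it 9 of the 13 peaks were above 0, among them 3 of the 4 of 1 kb or more. The 6 peaks in the 20 kb past its end gave 0.78 (0.50 to 1.06), and Isyna1, which lies within that stretch, gave 0.66 (0.40 to 0.92). The 3 peaks in the 20 kb before the start gave -0.11 (-0.32 to 0.11). With peaks assigned to the nearest transcript start, the ratio of Ell turned to -0.04.

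Ell2, a paralog that is known for its role in antibody-secreting cells (ENSMUSG00000001542.7, chromosome 13, 75706757 to 75772364, plus strand), was barely marked. Its 7 peaks covered 3.06% of the body, none reached 1 kb, and the first lay 42.1 kb from the start, at 64.1% of the body. In spleen the peaks had 1.67 to 7.67 RPKM with a median of 5.07, and in LI 8.84 to 15.1 RPKM with a median of 9.82. The median over all peaks was 10.4 RPKM in spleen and 10.5 RPKM in LI. A peak called in LI alone would tend to be higher there by that choice. Whether this holds for these 7 peaks was not tested. The ratio of the sums was 1.14 (0.52 to 1.77), and 1.19 after GC correction. The highest ratio of a single peak was 2.17. The peak with the smallest difference had 7.67 and 9.82 RPKM.

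The ratio of Ell2 rests on few reads. Its interval included values under 2-fold, and 229 of 9456 coding genes had a ratio as high. Among the 5291 coding genes of 20 to 200 RPKM, the range in which Ell2 lies, 236 passed 2-fold towards LI. Glrx, 67.5 kb past the end, was also higher in LI, with 0.85 (0.40 to 1.30). Ell3, a further ELL gene, belongs to the wider list below. It had 5.06 RPKM in spleen and 21.7 RPKM in LI over 2 peaks, a ratio of 1.95 (0.62 to 3.28). By the sum over their bodies all ELL genes were thus higher in LI, 2 of them on weak signal, with the direction of Ell turning under the nearest start.

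**Figure D4:**
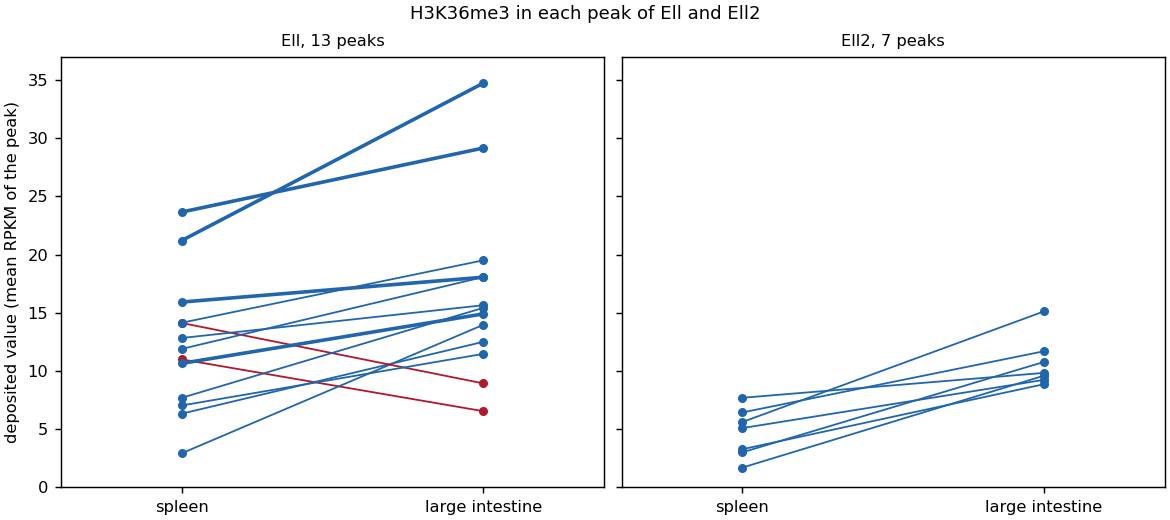
Deposited mean RPKM of each peak of Ell and Ell2 in spleen and LI, with a line joining the values of 1 peak; blue lines rise towards LI, red lines fall, and thick lines are peaks of 1 kb or more. All 7 peaks of Ell2 and 11 of the 13 of Ell rise.

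Cdk9, the kinase of P-TEFb (ENSMUSG00000009555.16, chromosome 2, 32705784 to 32713076, minus strand), is the shortest of the genes and the most densely marked, with 92.6% of its body in peaks. It had 2 peaks. The small one near the start had 6.68 RPKM in spleen and 11.1 RPKM in LI, and the large one, of 8412 bp, had 25.8 and 28.0 RPKM, a ratio of 0.07 (-0.07 to 0.21). The large peak runs past the gene end, so its signal is not that of Cdk9 alone. The sum gave 0.22 (-0.02 to 0.46), and 0.04 after GC correction.

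Ccnt1, which encodes cyclin T1 (ENSMUSG00000011960.12, chromosome 15, 98538689 to 98570923, minus strand), held 19 peaks that summed to 217.2 RPKM in spleen and 208.6 RPKM in LI, a ratio of -0.10 (-0.29 to 0.08). Its 6 peaks of 1 kb or more were all higher in spleen, by small amounts, from -0.41 to -0.12. Its peaks are poor in GC, with a median of 41.8%. After GC correction 3 of these 6 peaks were above 0, as were 12 of all 19, and the gene stood at 0.02. The next gene upstream, Adcy6, 19.1 kb away, had 105.0 and 37.9 RPKM and a ratio of -1.51 (-2.02 to -0.99), so Ccnt1 lay beside a gene with a large difference without sharing it. Ccnt2, which encodes cyclin T2 (ENSMUSG00000026349.14, chromosome 1, 127774164 to 127808061, plus strand), held 13 peaks that summed to 111.1 RPKM in spleen and 127.6 RPKM in LI. The ratio was 0.15 (-0.17 to 0.47), and its largest peak, of 3400 bp near the end, had 19.2 and 20.4 RPKM. After GC correction Ccnt2 stood at 0.29. None of the P-TEFb genes had an interval that excluded 0, beside intervals below 0 for 15.2% and above 0 for 17.9% of all genes.

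Supt6, which encodes the histone chaperone Spt6 (ENSMUSG00000002052.6, chromosome 11, 78206746 to 78245987, minus strand), held 10 peaks that summed to 158.9 RPKM in spleen and 154.6 RPKM in LI. Summed as they stand, the peaks gave -0.09 (-0.24 to 0.07). The 4 peaks of 1 kb or more, which hold most of the marked length, were all higher in LI, with ratios from 0.04 to 0.27. The largest, of 10162 bp at the gene end, had 28.3 RPKM in spleen and 32.7 RPKM in LI. It runs past the gene end, so its signal is not that of Supt6 alone. Peaks with both ends in the body gave -0.14. Near the start, short peaks went both ways. The first had 9.74 RPKM in spleen and 3.86 RPKM in LI, the next 14.2 and 16.5 RPKM, and the one after it 9.84 and 1.06 RPKM. Weighted by length, the ratio of the gene turned to 0.08, so its sign is set by how short peaks are counted.

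Iws1, the partner of Spt6 (ENSMUSG00000024384.4, chromosome 18, 32067741 to 32104328, plus strand), held 21 peaks that summed to 215.5 RPKM in spleen and 220.1 RPKM in LI. Its ratio was -0.01 (-0.22 to 0.19), and 0.18 after GC correction, its peaks having a median of 41.7% GC. The largest peak, of 6410 bp, had 14.5 RPKM in spleen and 13.0 RPKM in LI. The lowest ratio was -1.36, in a peak of 265 bp. In another short peak, of 410 bp, the values were 4.78 RPKM in spleen and 14.9 RPKM in LI. Map3k2, 58.8 kb past the end, gave -0.38 (-0.60 to -0.16).

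The ratio also varied along the other genes, each cut into 5 equal parts. Part 1 is next to the start and part 5 next to the end. In Supt6, parts 1 and 2 gave -0.49 (-0.99 to 0.01) and -0.57 (-1.20 to 0.06), and parts 3 to 5 gave 0.13, 0.14 and 0.16. In Iws1, part 1 gave -0.57 (-1.05 to -0.09) and part 5 gave 0.51 (-0.22 to 1.24). In Ccnt2, part 1 gave -1.58 (-2.85 to -0.31) on 2 short peaks while parts 4 and 5 gave 0.68 (0.11 to 1.25) and 0.07 (-0.37 to 0.52). In Ccnt1, part 1 gave 0.21 (-0.47 to 0.90) on 2 peaks and part 2 gave -0.90 (-1.36 to -0.44) on 4. In Aff1, part 2 gave 0.08 (-0.86 to 1.03) on 3 peaks and part 3 gave -0.45 (-0.72 to -0.18) on 17. In Ell, part 1 gave -0.76 (-2.15 to 0.64) on 1 peak and part 5 gave 0.30 (0.09 to 0.50) on 3. The parts were named after their values had been seen. Aff3 stayed between -1.88 and -1.38, and Aff4 had 0.13 (-0.15 to 0.42) in part 2, where its marked body begins.

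Over all coding genes with at least 20 RPKM in the part, the median ratio went from -0.06 in part 1 (3288 genes) through -0.04, -0.02 and 0.01 to 0.04 in part 5 (6873 genes). In part 1 the middle 50% of genes lay between -0.37 and 0.26. The share of genes higher in spleen was 54.9% in part 1 and 44.6% in part 5. The early parts hold few and short peaks, and the deposited table does not record in which tissue a peak was called. Whether that choice of peaks moves these parts was not tested.

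**Figure D5:**
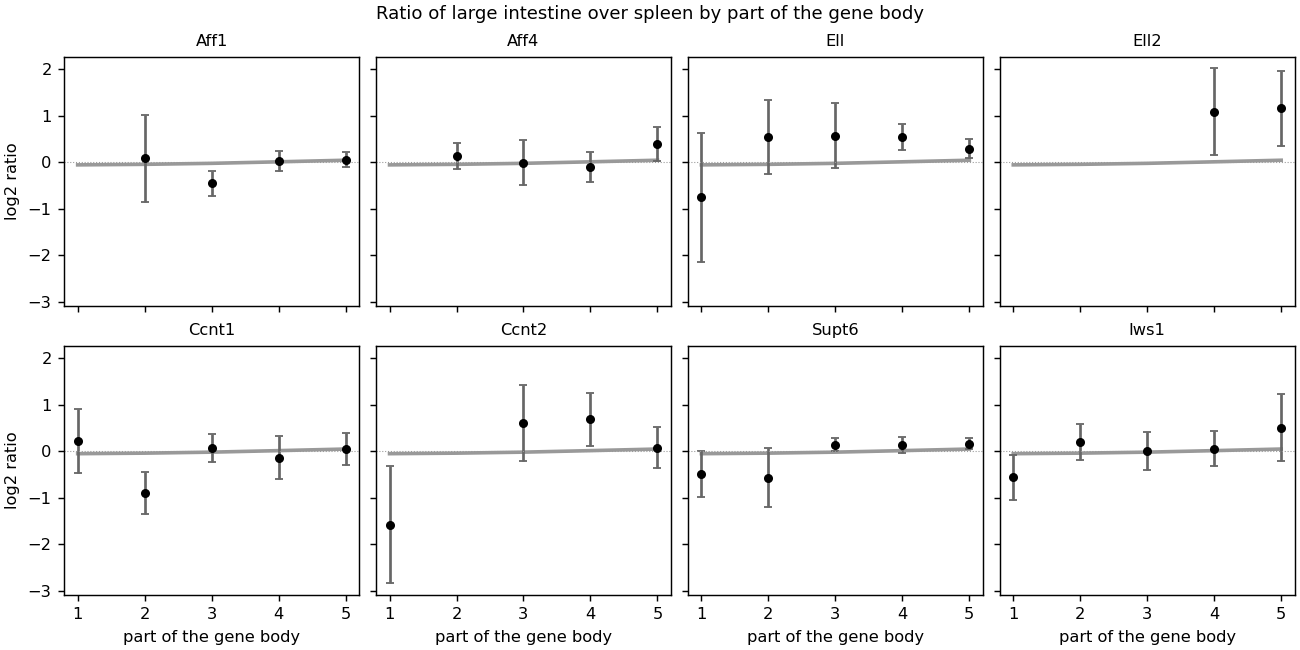
Log2 ratio of LI over spleen in each of 5 equal parts of the gene body, from the start (1) to the end (5), with 95% counting intervals; a part with no peak midpoint has no point. The grey line is the median over all coding genes, which stays between -0.06 and 0.04. Supt6, Iws1, Ccnt2 and, on 1 peak, Ell lie below it in part 1, and Ccnt1 and Aff1 do not lie below it in their first marked part.

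A wider list of 37 elongation genes that are not among the 10 was described in the same way, and 33 of them had enough signal. Their median ratio was -0.10, with 22 genes higher in spleen and 11 higher in LI, and it was -0.005 after GC correction. The split was 18 to 15 after GC correction. The interval lay below 0 for 6 genes (18.2%) and above 0 for 4 (12.1%), beside 15.2% and 17.9% of all genes. The share past 2-fold was 0 of 33 towards spleen and 1 of 33 towards LI, the gene being Ell3. Hexim1, Aff2 and Tcea3 had no peak, and Tcea2 was below the minimum.

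Among the partners in the super elongation complex and the regulators of P-TEFb, Mllt3 and Larp7 had intervals below 0. In the little elongation complex, Ice2 did so, with -0.61 (-0.91 to -0.30). Ice1 gave 0.05 (-0.14 to 0.23) and Zc3h8 -0.27 (-0.67 to 0.14). Mllt3, a reader of acetylated histones that binds AF4 proteins, had 325.4 RPKM in spleen and 245.4 RPKM in LI, a ratio of -0.45 (-0.65 to -0.25). Mllt1, its relative, gave -0.13 (-0.34 to 0.07). Of the ELL-associated factors, Eaf1 gave -0.01 (-0.22 to 0.20) and Eaf2 -0.80 (-1.60 to 0.01). Larp7, a protein of the 7SK particle in which P-TEFb is held inactive, gave -0.61 (-1.04 to -0.18).

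The 4 subunits of NELF, which keeps the paused polymerase in place, all had ratios above 0, from 0.18 (Nelfcd, -0.17 to 0.52) to 0.52 (Nelfe, 0.20 to 0.85), although GC correction took Nelfcd to -0.005. The subunits of DSIF, the partner of NELF, gave -0.10 (Supt5) and -0.33 (Supt4a). The 6 genes of the PAF1 complex, which travels with the polymerase, ran from -0.17 (Cdc73) to 0.20 (Leo1). The kinases of later elongation, Cdk12 and Cdk13, gave -0.23 (-0.38 to -0.09) and -0.53 (-0.78 to -0.28), and their cyclin Ccnk gave 0.11 (-0.05 to 0.27). After GC correction Cdk12 stood at 0.04 and Cdk13 at -0.31. Setd2, the writer of the mark, had 636.1 RPKM in spleen and 613.6 RPKM in LI and a ratio of -0.10 (-0.23 to 0.03).

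The libraries differed in ways that touch these ratios. By the size of their steps, the values came from 29600000 mapped reads for spleen and 38100000 for LI. The median ratio of peaks rose with GC content, from -0.53 in the lowest of 20 equal bins to 0.35 in the highest, and the 3189 peaks within 500 bp of a coding start had a median of 0.17. Treg and T cell genes, Foxp3 among them, had peaks in 7 of 7 cases, with 1810 RPKM summed in spleen and 1536 RPKM in LI. Without Ikzf2, the other 6 summed to 605 and 686 RPKM. Of 8 B cell genes, 4 had peaks (72.6 and 53.7 RPKM), and Ms4a1, Ebf1 and Blk were among those with none. The 4 went both ways. Cd79a had 47.2 RPKM in spleen and 29.8 RPKM in LI, a ratio of -0.70 (-1.32 to -0.08). Cd79b had 8.96 and 13.7 RPKM, a ratio of 0.54 (-0.06 to 1.14). Below the minimum for a ratio, Cd22 had 12.4 and 0.25 RPKM and Pax5 had 4.05 and 9.91 RPKM. Of 8 intestinal epithelium genes, Epcam and Vil1 had peaks (29.9 and 59.8 RPKM). Epcam gave 0.84 (0.23 to 1.46), and Vil1, below the minimum, had 4.63 and 12.6 RPKM. Of 7 myeloid genes 2 had peaks (29.7 and 31.3 RPKM). Of the CD8 T cell genes Cd8a had none. Cd8b1 had 21.1 RPKM in spleen and 9.46 RPKM in LI, a ratio of -1.16 (-2.28 to -0.04). Aff3 is also known in B cells, and the part of other cells in its ratio was not tested.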

How the data were processed

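H3K36me3 ChIP-seq of splenic and LI Treg cells was analysed from 1 deposited table of 2 libraries; each immunoprecipitation used the same amount of chromatin. According to the submitters' processing notes and the methods, the authors checked reads with FastQC, aligned them to mm10 with Bowtie2, called peaks for each tissue with MACS2 over the input, and joined both sets with bedtools. The deposited values are RPKM coverage averaged over each merged peak by the authors. The table is labelled as raw counts, but the values were not whole. The product of value and peak length was a multiple of 1 step (1.69 RPKM in spleen, 1.31 in LI) in 99.97% and 99.98% of low products, within a tolerance of 0.05 steps. With bins of 20 bp this gives the depth stated above. Reads per peak were not recovered, since the extension of reads is not given in the sources used here, so no count test was run.

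Chromosome lengths were compared with GRCm38 and 0 of 21 were exceeded. Peaks were assigned to every GENCODE M21 gene whose body holds their midpoint. RPKM values were summed per gene, a pseudocount of 0.5 RPKM was added, and the ratio of the totals of both libraries (0.046 in log2) was subtracted. On this log2(value + pseudocount) scale the change of weakly marked genes is understated. Signal over the body used the overlap of each peak with it. GC correction subtracted the median log2 ratio of 20 bins of GC content. Sequence and GC content were read from RefSeq's GRCm38.p6. Python 3.11.15 with numpy 2.4.6, pandas 2.3.3, pysam 0.24.0, samtools 1.23.1 and matplotlib 3.10.9 was used, and the functions were tested on simulated data. The 10 genes and all lists were chosen with earlier results of these data known. The named genes are the 10 members, the wider list's genes with the highest and lowest ratio or past 2-fold, and the 3 coding genes with at least 200 RPKM nearest to Aff3. For each member the rule names the peak with the most signal times length and the extreme peaks of 1 kb or more. Other genes and peaks were named after their values were seen. The closing section gives 13 alternatives. Some items of the fixed lists are not reported here.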

Additional observations from a re-analysis of the deposited data

How the results depend on the processing

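The ratios were recomputed under 13 alternatives. Of the 126 values for single genes, 117 stayed within the counting interval and 9 moved further, while no ratio past 2-fold changed sign. Aff3 was past 2-fold towards spleen under all 13, from -1.17 in the strongest peak to -1.62 after GC correction. Ell2 lay between 1.02 and 1.31 under the 11 alternatives that gave it a value. With at least 200 RPKM, or with peaks of 1 kb or more alone, 0 elongation genes were past 2-fold towards LI, because Ell2 was then not among the genes tested. The median of the 10 genes ranged from -0.05 to 0.11 and that of the wider list from -0.11 to 0.00. Ell fell to -0.04 with peaks assigned to the nearest transcript start. Supt6 was above 0 under 4 alternatives, at most 0.16, and Aff4 reached 0.29 after GC correction; the cause was not tested. No paired analysis was possible because each tissue has 1 library, and leaving out a library was not possible for the same reason. Low signal limits Ell2, Ell3 and the parts near gene starts.

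Over all genes, 222 passed 2-fold towards spleen and 372 towards LI. A pseudocount of 5 gave 145 and 252. Without a filter the numbers were 459 and 623. A minimum of 200 RPKM gave 39 and 70, the strongest peak of each gene 102 and 238, and peaks of 1 kb or more 40 and 120.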
